A study of Mus musculus with 6 samples.

Results

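The genes described here are 9 genes of the type 2 T helper (TH2) programme, Gata3, Stat6, Maf, Il4ra, Il1rl1, Il4, Il5, Il13 and Il24, in induced regulatory T (iTreg) cells that lack the microRNA miR-31. They were chosen by name, with earlier results of these data known. Every probe of the array that carries one of these symbols was taken, which gave 17 probes of 41174. They are 9 of the 27376 gene symbols on the array. The samples were 3 cKO cultures, from mice carrying miR-31 fl/fl and CD4Cre, and 3 control cultures, which the labels call age-matched and the study's methods give as miR-31 fl/fl without CD4Cre. Each culture was hybridized to 1 one-colour Agilent whole mouse genome array. The mice were 6 weeks old and on the C57BL/6 background, and naive CD4+ T cells, sorted from spleen as CD25-, Foxp3gfp- and CD62Lhi, were kept for 4 days on plate-bound anti-CD3 (5 μg/ml) with soluble anti-CD28 (2 μg/ml), TGF-β1 (5 ng/ml) and IL-2 (40 ng/ml in the labels, a lower dose in the study's methods), with no TH2-polarizing cytokine named in the medium. CD4Cre acts in developing T cells at the stage when CD4 is expressed, so that deletion precedes the naive cell that was sorted, and only the cKO cells carried Cre, so that the loss of miR-31 and the presence of Cre cannot be told apart.

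TH2 cells are the helper T cells of responses to worms and of allergic inflammation. IL-4 binds a receptor that contains IL-4Rα, the receptor activates the transcription factor STAT6, and STAT6 raises GATA3, which opens the locus that holds the genes for IL-4, IL-13 and IL-5. In regulatory T cells GATA3 and the IL-33 receptor ST2 are also used, mainly in tissues, whereas TGF-β1, which is needed to make iTreg cells, restrains GATA3.

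The deleted microRNA pairs with its targets through bases 2 to 8 of its mature sequence, the seed, shown in capitals. It is the 22-base product of the RefSeq gene on the minus strand of chr4:88910614-88910635 (GRCm38.p6). No probe on the array is named for miR-31, so its loss was not measured here.

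mmu-miR-31-5p: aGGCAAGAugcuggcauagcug

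The values below come from probes of 60 bases, and 4 of them are shown because the results for the cytokines and the ST2 receptor rest on them. The Il4 probe lies at chr11:53426076-53426135 and the Il13 probe at chr11:53445564-53445623, both on the minus strand of mm9, the build in the array's files. The Il1rl1 probe is mapped over 863 bases of the plus strand, chr1:40498342-40499204, and the Il24 probe over 485 bases of the minus strand, chr1:132779972-132780456, each longer than the probe itself, as for a probe that crosses an intron. Exons and UTRs of mm9 were not used here, so that the place of each probe within its transcript is not given.

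Il4, A_51_P237865: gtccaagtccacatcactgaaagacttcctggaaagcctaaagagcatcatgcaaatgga

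Il13, A_51_P194823: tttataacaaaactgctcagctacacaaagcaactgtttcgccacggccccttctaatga

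Il1rl1, A_52_P19955: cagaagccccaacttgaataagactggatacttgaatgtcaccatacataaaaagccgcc

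Il24, A_52_P87757: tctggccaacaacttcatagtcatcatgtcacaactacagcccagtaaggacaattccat

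The site of 7 bases opposite the miR-31 seed, TCTTGCC, was found in 0 of the 17 probes and in 133 of all 41174 (0.323%). A probe covers 60 bases of a transcript, so that this says nothing of the rest of it.

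Each value is the log2 of a probe's processed signal minus the log2 of the 75th percentile of that array, so that 0 stands for the 75th percentile and a difference of 1 is a 2-fold change. Levels are compared between arrays for 1 probe, and not between probes. The percentile lay between 987 and 1148 on the 6 arrays, between 49.3% and 57.7% of spots were well above background, and 0 spots were saturated. Array-to-array correlations over the tested probes were 0.974 to 0.985 among cKO arrays, 0.984 to 0.989 among control arrays and 0.948 to 0.984 between the groups. The 3 cKO arrays and control array 1 shared a slide and a scan (slide 1), and control arrays 2 and 3 were on slide 2, so that slide and genotype overlap in part, and a difference within slide 1 compares 3 cKO arrays with 1 control array. Foxp3, the factor that defines regulatory T cells, had 3.16, 3.12 and 2.45 on the cKO arrays and 3.42, 3.42 and 3.76 on the control arrays, all well above background (log2 fold change -0.62, standard error 0.22, adjusted p = 0.19 in limma). Of 12 markers of T and Treg cells 11 were tested, of which 5 were higher in cKO cells at an unadjusted p under 0.05 (11.5% of all tested probes were) and 2 lower (11.4%), each without overlap and 0 with an adjusted p under 0.05. The higher ones were Ctla4 (0.94), Cd3g (0.74), Cd4 (0.66), Cd28 (0.43) and Cd3d (0.38), and the lower ones Foxp3 and Cd3e (-0.28), as log2 fold changes at the brightest probe, while the other Cd3e probe went the opposite way (0.78, with overlap). The probe for the T cell receptor alpha chain was not well above background on any array. The summed linear level of the T and Treg markers was 268.6 to 314.6 on the cKO arrays and 256.3 to 261.8 on the control arrays, in units of the 75th percentile. The summed linear level of 9 TH1 and TH17 markers was 55.7 to 65.7 on the cKO arrays and 18.7 to 45.7 on the control arrays, again without overlap. Such a sum is carried by its brightest genes. Of the 9, 7 were tested, with log2 fold changes from -0.58 to 1.41 and 0 with an adjusted p under 0.05. In 3 of them the cKO arrays were higher without overlap, against 15.9% of all tested probes. Il17a and Il23r were not well above background on any array. The arrays measure bulk RNA, in which fewer cells of a type and less RNA per cell cannot be told apart.

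Among the 17 TH2 probes, 14 passed the filter (well above background on at least 3 arrays) and were tested, covering 7 of the 9 genes. The probes of Il5 and Il13 and 1 Il1rl1 probe did not pass. In limma 0 of the 14 had an adjusted p under 0.05, where 0.242% of all 22281 tested probes did (54 probes, or 29 when the 75th percentile was taken over probes instead of spots), and the adjusted p-values of the 14 ran from 0.15 to 0.83. At an unadjusted p under 0.05 there was 1, an Il1rl1 probe higher in cKO cells, against 11.5% of all tested probes higher and 11.4% lower. The fitted difference, cKO minus control, was above 0 for 13 of the 14 probes and below 0 for Il4, with a median log2 fold change of 0.28 against -0.04 over all tested probes. These are descriptions only, since the probes of 1 gene share their transcript and 1 Il1rl1 probe passed the filter through its cKO arrays alone. All cKO arrays lay above all control arrays for 2 of the 14, where 15.9% of all tested probes did so, and the opposite order was seen for 0 of them against 20.7%.

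**Figure D1:**
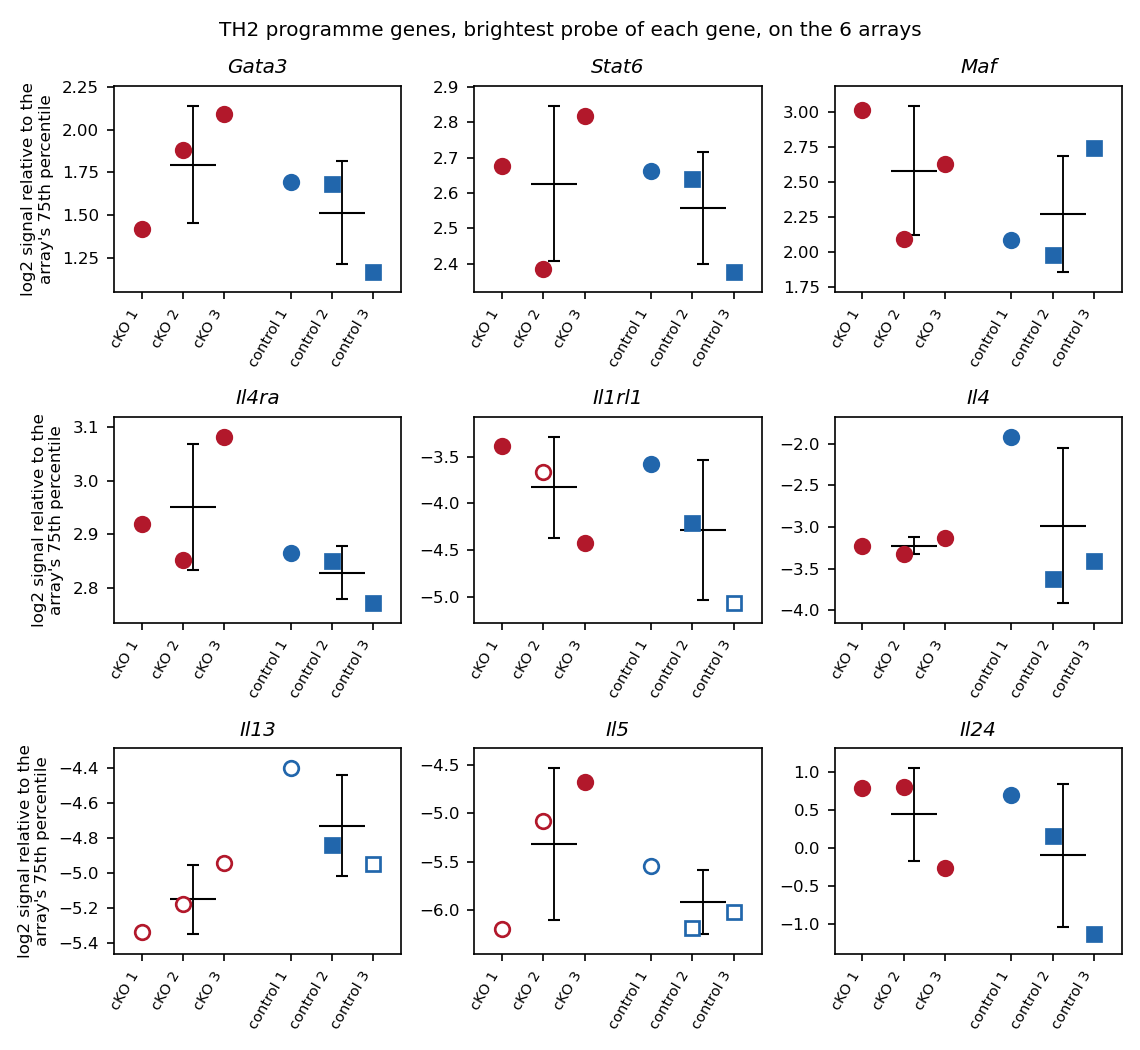
Log2 signal after subtraction of each array's 75th percentile (y axis) for the brightest probe of each of the 9 genes on the 3 cKO arrays (red) and 3 control arrays (blue). Filled symbols are well above background and open ones are not, circles are slide 1 and squares slide 2, and the bars give the mean and SD of each group. The groups overlap in all 9 panels, and Il4 stands high on control array 1 alone (-1.92).

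Gata3 encodes the lineage-defining transcription factor of TH2 cells, and its single probe (A_52_P546363, NM_008091, chr2:9778983-9779042, mm9) was well above background on all 6 arrays. It had 1.42, 1.88 and 2.09 on the cKO arrays and 1.69, 1.68 and 1.17 on the control arrays. The highest values were on cKO arrays 3 and 2 and the lowest on control array 3, while cKO array 1 lay below control arrays 1 and 2, so that the groups overlapped. Group means were 1.80 ± 0.34 and 1.51 ± 0.30 (SD, n = 3 arrays each), a log2 fold change of 0.28 (standard error 0.23, 95% interval -0.28 to 0.84, adjusted p = 0.47 in limma). The interval spans 0, and the value within slide 1 was 0.10.

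Stat6, the factor that carries the IL-4 receptor signal to the nucleus, was read by 3 probes, all annotated to NM_009284 on chromosome 10 and well above background on every array. The brightest (A_52_P114494, chr10:127097689-127097748, plus strand) had 2.68, 2.39 and 2.82 on the cKO arrays and 2.66, 2.64 and 2.38 on the control arrays, with the lowest array of each group nearly level. Its log2 fold change was 0.07 (standard error 0.15, 95% interval -0.30 to 0.44, adjusted p = 0.80), and the sign turned to -0.03 within slide 1, -0.03 without cKO array 3 and -0.02 without control array 3.

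The second Stat6 probe (A_51_P452382) is printed in 10 spots per array. The spot means were 1.61, 1.99 and 1.83 on the cKO arrays and 1.69, 1.61 and 1.35 on the control arrays, with an SD among the spots of an array of at most 0.059, against 0.19 and 0.18 between the arrays of the groups. cKO array 1 lay below control array 1 and level with control array 2. The difference was 0.26 (standard error 0.15, adjusted p = 0.33). The dimmest probe (A_52_P132761) had -0.93, -0.83 and -0.81 on the cKO arrays against -0.94, -1.03 and -1.18 on the control arrays. These groups did not overlap, though cKO array 1 and control array 1 were nearly level, and the difference was 0.20 (standard error 0.11, adjusted p = 0.31, exact permutation p = 0.10, the smallest that 3 arrays against 3 allow). Over the 6 arrays, which all probes share, A_51_P452382 and A_52_P132761 followed each other (Pearson r = 0.93), whereas A_52_P114494 had an r of 0.17 with A_51_P452382 and 0.45 with A_52_P132761.

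Maf encodes c-MAF, which binds the Il4 promoter and is also used by IL-10-producing T cells. All 4 probes of the gene, on the minus strand of chromosome 8, were well above background on every array. The brightest (A_52_P306079, chr8:118231607-118231666) had 3.01, 2.10 and 2.63 on the cKO arrays and 2.08, 1.98 and 2.74 on the control arrays. High and low arrays were found in both groups, with cKO arrays 1 and 3 and control array 3 high and the other three low. This gave 0.31 (standard error 0.30, 95% interval -0.42 to 1.04, adjusted p = 0.54), and 0.50 within slide 1. In the other 3 probes the difference was 0.28 (A_51_P405167), 0.10 (A_51_P379230) and 0.42 (A_52_P1074873), with adjusted p-values of 0.67, 0.83 and 0.39. The first 2 of these fell to -0.00498 and -0.13 without cKO array 1, which was the highest of the 6 arrays for every Maf probe but A_52_P1074873. The 6 pairs of Maf probes correlated at 0.68 to 0.97 over the 6 arrays.

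Il4ra encodes IL-4Rα, which IL-4 and IL-13 share, and its probe (A_51_P464478, NM_001008700, chr7:132721137-132721196) had 2.92, 2.85 and 3.08 on the cKO arrays and 2.86, 2.85 and 2.77 on the control arrays. cKO array 3 was the highest and control array 3 the lowest, with the other four between them. The difference of 0.12 (standard error 0.11, 95% interval -0.14 to 0.38, adjusted p = 0.49) was the most narrowly bounded of the 7 genes tested. In this fit a change of more than 0.38 on the log2 scale in either direction lay outside the interval. The bound holds for this fit alone. With normexp and the 75th percentile the Il4ra difference was -0.062, with a larger standard error of 0.19.

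Il1rl1 encodes ST2, the receptor of the alarmin IL-33, as a membrane form and as a shorter soluble form. The array has 1 probe for NM_001025602 and 2 for NM_010743, and whether a probe also reads the other transcript was not tested. The NM_001025602 probe (A_52_P484194, chr1:40521952-40522011) had -3.39, -3.66 and -4.43 on the cKO arrays and -3.58, -4.21 and -5.07 on the control arrays. Its signal passed the background call on 4 arrays, cKO arrays 1 and 3 and control arrays 1 and 2. The groups overlapped, for a difference of 0.46 (standard error 0.44, 95% interval -0.60 to 1.52, adjusted p = 0.53), which turned to -0.25 within slide 1. One NM_010743 probe (A_51_P339793) was not well above background on any array.

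The other NM_010743 probe (A_52_P19955), the sequence shown above, had -3.35, -3.40 and -3.80 on the cKO arrays, all well above background, and -4.85, -6.64 and -4.62 on the control arrays, none well above background. The groups were separate. For each control array, the higher of its own signal and the lowest signal called well above background there was taken. On that footing the level was 3.47-fold higher in cKO cells. This is an estimate and not a lower limit, since some probes brighter than that lowest signal were not called well above background. The fitted difference was 1.85 (standard error 0.53, adjusted p = 0.15, exact permutation p = 0.10), 1.33 within slide 1 and 1.22 to 2.23 with each array left out. It was 0.60 with normexp and quantile normalization and 2.64 with array weights. A probe like this passed the filter only because the cKO arrays were bright, so that it had to differ, and it correlated with the NM_001025602 probe at r = 0.31 over the arrays. ST2 is also borne by mast cells, basophils and eosinophils. Of 9 markers of those cells 2 were tested and 4 were not well above background on any array, and their summed linear level was 0.391 to 1.94 on the cKO arrays and 0.266 to 0.580 on the control arrays. The 2 tested were Prg2, an eosinophil granule protein, and Kit, the mast cell growth factor receptor. Prg2 had -4.15, -3.96 and -2.72 on the cKO arrays, all well above background. The control arrays had -4.83, -5.48 and -6.86, none of them well above background. On the same footing Prg2 was 3.74-fold higher in cKO cells, and it passed the filter through the cKO arrays alone. Kit had -1.94, -0.46 and 0.74 against -1.58, -1.78 and -2.75, with overlap (1.48, standard error 0.69, adjusted p = 0.25). Cpa3, a mast cell protease, was well above background on cKO array 3 alone. Their part in the Il1rl1 values was not tested.

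**Figure D2:**
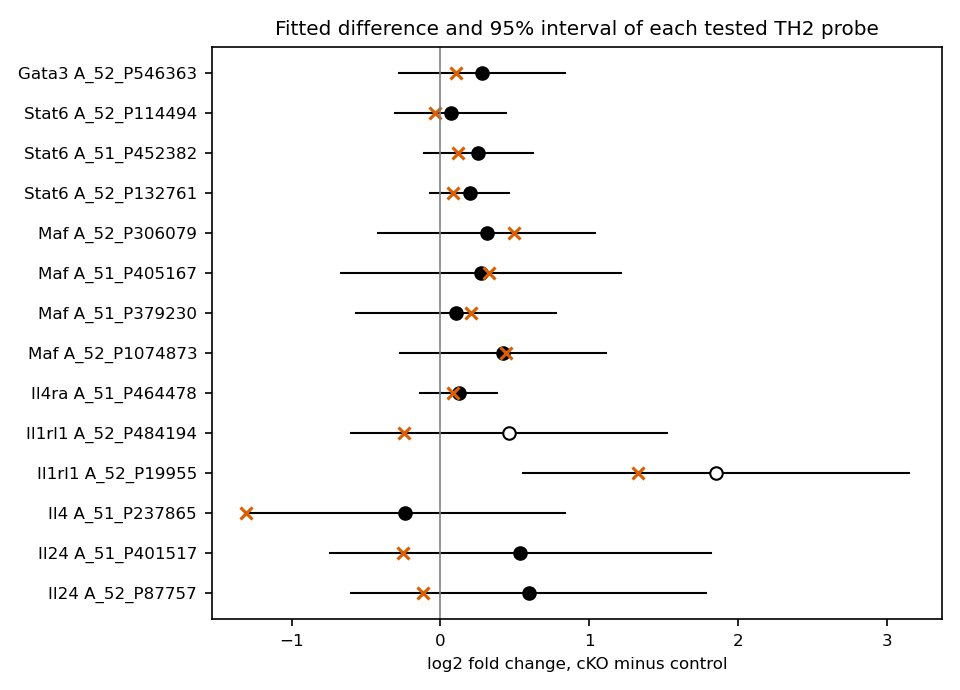
Log2 fold change, cKO minus control (x axis), of the 14 tested probes by gene, with the 95% interval from limma (line). Filled points are probes well above background on all 6 arrays, open points the 2 Il1rl1 probes that were not, and crosses the value within slide 1. The interval excludes 0 for Il1rl1 A_52_P19955 (0.56 to 3.15), which passed the filter through the cKO arrays alone and so had to differ, and spans it for the other 13 probes.

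Of the 3 cytokines of the Il4 locus, Il4 was above background on all arrays and the other two on 1 array each. Il4, whose product drives the programme, had -3.22, -3.33 and -3.13 on the cKO arrays and -1.92, -3.63 and -3.41 on the control arrays. Control array 1 was 1.21 on the log2 scale (2.31-fold) above the next array, while the other 5 arrays lay within 0.50 of each other. The difference between groups was -0.24 (standard error 0.44, 95% interval -1.31 to 0.83, adjusted p = 0.75), but it was 0.29 without control array 1 and -1.30 within slide 1, where control array 1 is the only control. The direction of the Il4 difference therefore rests on 1 array.

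This Il4 probe is printed in 10 spots, of which at most 1 per array was dropped as an outlier. On control array 1 the 9 spots kept ran from -2.15 to -1.62 (signals of 259 to 372), above every spot of every other array, where they ran from -4.08 to -2.45. The high value of control array 1 was thus seen in each of the 9 spots kept. Of all tested probes 54 (0.242%) stood at least as far above the next array on control array 1.

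**Figure D3:**
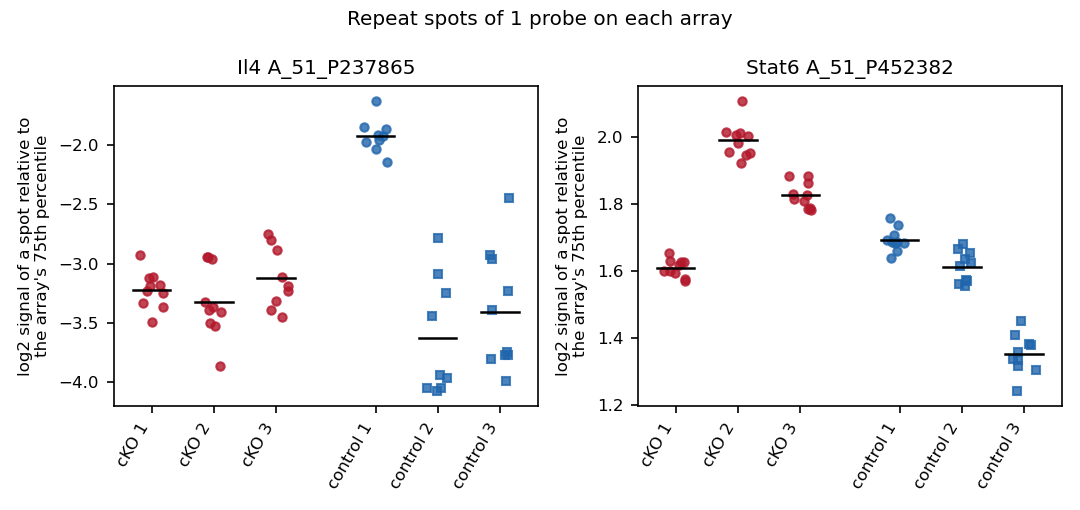
Log2 signal of each repeat spot, less the log2 75th percentile of its array (y axis), for the Il4 probe and the 10-spot Stat6 probe on each array, with the mean as a line; red is cKO, blue control, circles slide 1 and squares slide 2. Outlier spots were dropped. All Il4 spots kept on control array 1 (-2.15 to -1.62) lie above those of the other arrays, and the Stat6 spots of 1 array stay close together.

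Other cells that make IL-4, such as basophils and mast cells, were looked for among the markers. The cultures had been started from sorted naive CD4+ T cells. In the list of mast cells, basophils and eosinophils, Prg2 and Kit had higher group means in cKO cells, as given above, and Mcpt8 in control cells. Mcpt8, a basophil protease, had -3.26, -2.87 and -4.85 on the control arrays, well above background on control arrays 1 and 2. On the cKO arrays it had -6.75, -6.14 and -7.01, none of them well above background. On the footing used for Il1rl1 it was 5.55-fold higher in control cells, with 2 of the 3 control arrays measured. It was not tested. The Il4 values of control arrays 1, 2 and 3 were -1.92, -3.63 and -3.41. The summed linear level of 6 markers of CD8 T and NK cells was 8.96 on control array 1 and 4.99 to 6.49 on the other 5. Their part in the Il4 value was not tested.

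Il13 and Il5 encode the effector cytokines that act on mucus and airway and on eosinophils. Il13 had -5.34, -5.18 and -4.94 on the cKO arrays and -4.40, -4.84 and -4.95 on the control arrays, and was well above background on control array 2 alone. Il5 (A_51_P185415, NM_010558, chr11:53538345-53538404, mm9) had -6.19, -5.08 and -4.68 on the cKO arrays and -5.55, -6.18 and -6.02 on the control arrays, and was well above background on cKO array 3 alone. Both genes overlapped between the groups and were not tested, and with 1 array measured no fold is given.

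The 3 cytokine genes lie on mouse chromosome 11 in the order Il4, Il13, Rad50, Il5, with Kif3a on the outer side of Il4 and Irf1 beyond Il5. The 250 bases before the start of Il4 and of Il13 are shown because both belong to the genes that STAT6 and GATA3 act on, and Stat6 and Gata3 were well above background on all arrays whereas Il13 was on 1. They are RefSeq sequences of the minus strand (GRCm38.p6), chr11:53618666-53618915 for Il4 and chr11:53634703-53634952 for Il13. Capitals mark matches, on either strand, to the GATA motifs AGATAA and TGATAA and to the STAT6 motif, TTC and GAA with 4 bases between them. No motif overlaps another in these windows.

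Il4: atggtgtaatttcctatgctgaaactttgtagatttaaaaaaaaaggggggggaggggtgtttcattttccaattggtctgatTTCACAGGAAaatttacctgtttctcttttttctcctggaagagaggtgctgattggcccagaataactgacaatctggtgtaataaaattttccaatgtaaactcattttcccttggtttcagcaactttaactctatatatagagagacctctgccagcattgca

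Il13: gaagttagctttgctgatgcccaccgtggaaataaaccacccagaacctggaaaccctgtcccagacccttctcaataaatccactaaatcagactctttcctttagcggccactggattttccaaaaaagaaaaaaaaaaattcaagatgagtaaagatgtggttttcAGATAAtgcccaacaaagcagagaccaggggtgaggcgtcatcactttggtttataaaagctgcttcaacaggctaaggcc

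The Il4 window shown held 1 STAT6 motif, beginning 167 bases before the start, and the Il13 window 1 AGATAA, 81 bases before it. The window of the other RefSeq start of Il4 (chr11:53617339-53617588) and that of Il5 held none of the 3 motifs. Of the other members with a window, both Il1rl1 starts had AGATAA and 1 also TGATAA, and Gata3, Il4ra and Stat6 had none. Of 32851 such windows of mouse genes 9.99% held AGATAA, 7.94% TGATAA and 5.85% the STAT6 motif. A match of letters is not a measured site. Among the neighbours, Kif3a, a kinesin gene, had -0.64, -0.44 and -0.10 on the cKO arrays and -0.94, -1.06 and -1.45 on the control arrays, without overlap (0.76, standard error 0.20, adjusted p = 0.14). Rad50, a DNA repair gene whose introns hold control elements of the cytokine locus, differed by -0.31 without overlap (standard error 0.12, adjusted p = 0.21). Its other probe, not tested, had -4.35, -4.38 and -3.75 on the cKO arrays and -4.67, -4.75 and -4.61 on the control arrays. It thus went the opposite way, with cKO arrays 1 and 3 alone well above background. Sept8 differed by -0.37 without overlap (adjusted p = 0.28) and by -0.0055 with overlap at its other probe. Irf1 differed by -0.16 with overlap (adjusted p = 0.47). Of all tested probes 15.9% were higher and 20.7% lower in cKO cells without overlap.

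Il24 encodes a cytokine of the IL-10 family that TH2 cells secrete, and its 2 probes were well above background on every array. The brighter (A_51_P401517, NM_053095, chr1:132778780-132778839, mm9) had 0.79, 0.80 and -0.27 on the cKO arrays and 0.69, 0.16 and -1.14 on the control arrays. The other probe (A_52_P87757), shown above, had -0.25, -0.40 and -1.29 against -0.53, -0.97 and -2.22. Both probes were lowest on control array 3 and next lowest on cKO array 3, and they followed each other closely over the 6 arrays (r = 0.99). The range of values within each group was wider than the difference between the means, which was 0.54 (standard error 0.53, 95% interval -0.75 to 1.82, adjusted p = 0.54) and 0.59 (standard error 0.49, adjusted p = 0.47), and within slide 1 it turned to -0.25 and -0.12. It was 0.016 and 0.10 without control array 3, and 0.93 and 0.95 without control array 1.

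Il24 lies on chromosome 1 between Fcmr and Il20, next to Il19 and Il10. Il19 and Il20 did not pass the filter. Il10 had -1.88, -3.01 and -2.86 on the cKO arrays and -2.29, -3.67 and -4.69 on the control arrays, with control array 3 again the lowest. It differed by 0.97 with overlap (standard error 0.63, adjusted p = 0.37), and within slide 1 the difference turned to -0.29. Il1r2, a decoy receptor for IL-1 from the cluster that holds Il1rl1, had -2.02, -0.90 and -1.87 against -2.50, -2.25 and -2.37, without overlap (0.77, standard error 0.30, adjusted p = 0.21). Of all tested probes 15.9% were higher in cKO cells without overlap. The other tested neighbours, Il1rl2 (0.45), Il18rap (0.09) and Il18r1 (-0.11), overlapped between the groups.

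The members were then set beside a wider list of 54 genes that signal in, regulate or are made by TH2 cells, taken at the brightest tested probe. Of these 44 were tested, and in limma 0 had an adjusted p under 0.05, while 11 were higher and 6 lower in cKO cells at an unadjusted p under 0.05. That is 38.6% of the 44, against 23.0% of all tested probes, and it was 2 genes with slide as a term, where 7.39% of all tested probes had such a p. The median log2 fold change of the list was 0.14.

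**Figure D4:**
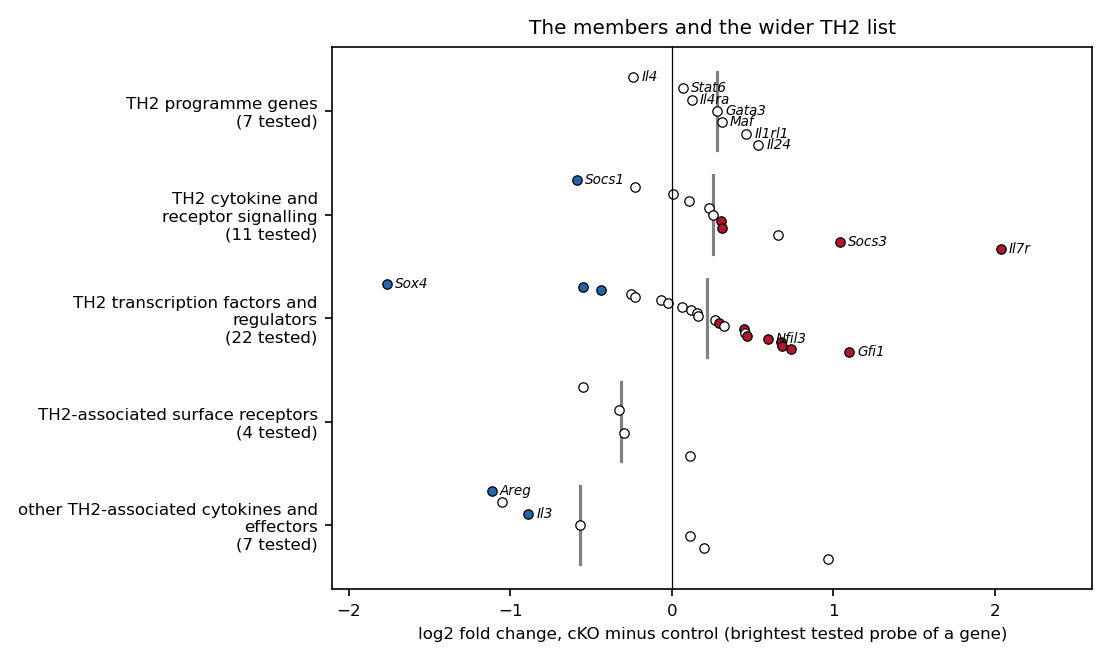
Log2 fold change, cKO minus control (x axis), of the 7 tested members and of the tested genes of the 4 wider TH2 lists, 1 point per gene at its brightest tested probe. Red points are genes with all cKO arrays above all control arrays, blue points the reverse, white points overlap, and the grey line is the median of a row. The members lie between -0.24 (Il4) and 0.54 (Il24), all white, while Il7r (2.03) and Sox4 (-1.76) lie furthest out.

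In cytokine signalling 11 of 15 genes were tested, 3 higher and 1 lower at an unadjusted p under 0.05, against 11.5% and 11.4% of all tested probes. Socs3, an inhibitor of STAT3 signalling, had 4.23, 4.08 and 4.45 on the cKO arrays and 3.71, 3.25 and 2.68 on the control arrays (1.04, standard error 0.27, adjusted p = 0.14). The other Socs3 probe, also well above background on every array, differed by 0.00496, with overlap. Socs1, an inhibitor of IL-4 and interferon signals, had 4.90, 4.83 and 4.27 against 5.32, 5.29 and 5.15 (-0.59, standard error 0.19, adjusted p = 0.17). Il7r, the IL-7 receptor chain that the TSLP receptor also uses, differed by 2.03 (standard error 0.69, adjusted p = 0.18), with control array 3 at -0.25 and the other 5 arrays between 1.65 and 4.12. At the brightest probe the groups did not overlap for any of the 3, which were named for their small p. Of the 11 tested genes of this list 4 were higher in cKO cells without overlap and 1 lower. Over all tested probes the shares were 15.9% and 20.7%.

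Of 23 transcription factors and regulators 22 were tested, 8 higher and 3 lower at such a p, against the same 11.5% and 11.4%. Sox4, which binds GATA3 and restrains TH2 differentiation downstream of TGF-β, ranged from -3.77 to -3.09 on the cKO arrays and from -2.04 to -1.30 on the control arrays. It was well above background on 5 of the 6 arrays, and its difference of -1.76 (standard error 0.28, adjusted p = 0.072) was the furthest from 0 among the regulators and -1.54 within slide 1. Gfi1, a repressor that supports the growth of TH2 cells, had 2.16, 1.85 and 2.25 against 1.42, 1.06 and 0.48 (1.10, standard error 0.26, adjusted p = 0.12). Nfil3 had 2.44, 2.64 and 2.63 against 2.15, 2.00 and 1.78 (0.60, standard error 0.13, adjusted p = 0.12).

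Among other cytokines and effectors 7 of 10 were tested, 0 higher and 2 lower (11.5% and 11.4% of all tested probes), and the median was -0.57. Areg, the gene of the growth factor amphiregulin, had -4.82, -4.29 and -4.44 on the cKO arrays and -3.42, -3.56 and -3.22 on the control arrays, well above background on the 3 control arrays and on no cKO array, so that it passed the filter through the control arrays alone. On the footing used for Il1rl1 its level was 2.17-fold higher in control cells (fitted difference -1.11, standard error 0.17, adjusted p = 0.069). Il3, a haematopoietic growth factor made by activated T cells, had 1.18, 1.38 and 0.26 against 1.86, 1.80 and 1.82 (-0.89, standard error 0.29, adjusted p = 0.17). Of 6 surface receptors 4 were tested and 0 had an unadjusted p under 0.05.

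Likeness was measured as Pearson's r with the member's brightest probe over the 6 arrays, among 14344 tested genes. The genes most like Gata3 were C2cd4b (0.998), Rbl2 (0.996) and H2-D4 (0.993), and within the wider TH2 list Tyk2 (0.96), Jak3 (0.94) and Ecm1 (0.93). Those most like Il4 were Rhpn2 (0.983), Klhl30 (0.979) and Hyls1 (0.976), whereas in the TH2 list the closest was Cd200r1 (0.56), followed by Il10 (0.52) and Notch1 (0.36). Each r is a description that rests on 6 points.

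**Figure D5:**
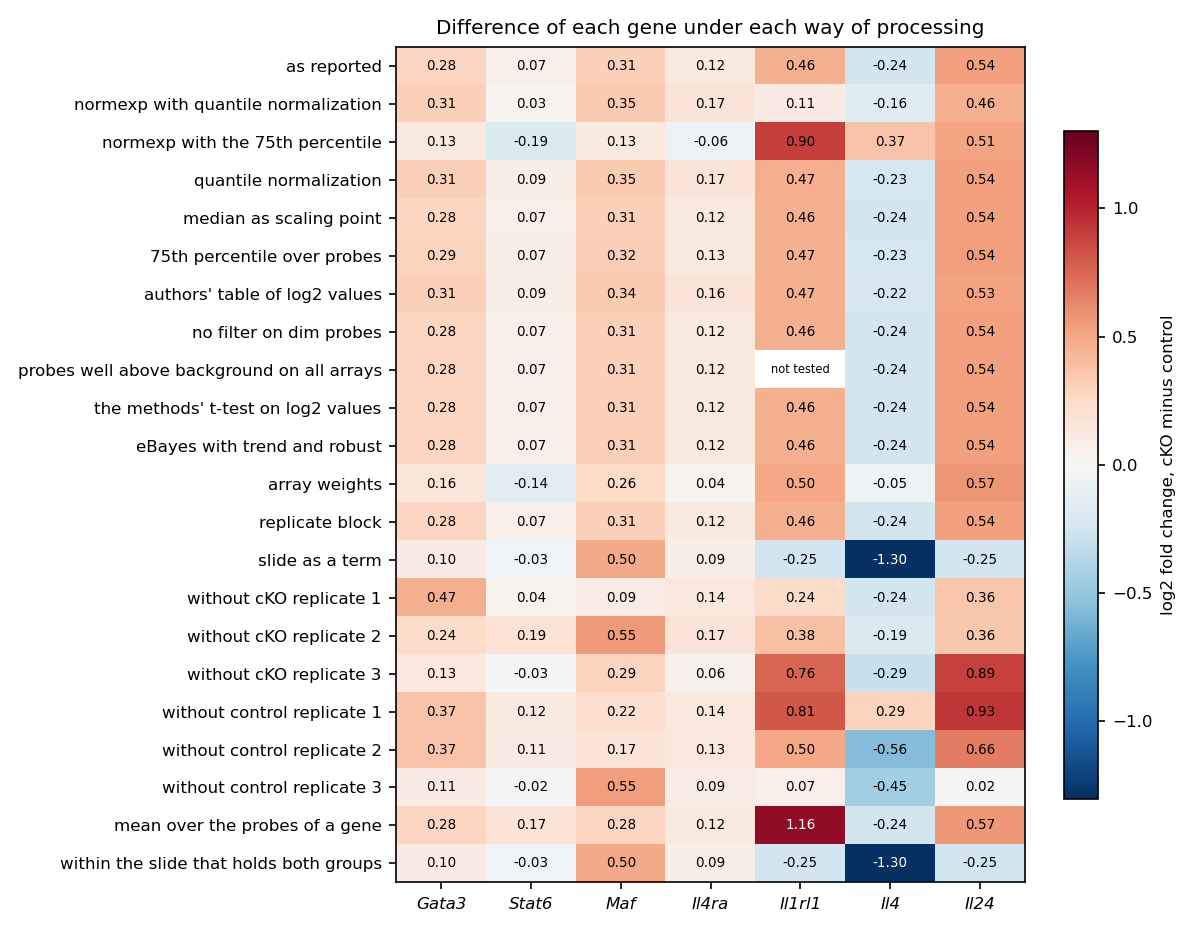
Log2 fold change, cKO minus control, of the 7 tested genes at their brightest tested probe (columns) under each way of processing (rows), with the value printed in each cell. Gata3 (0.10 to 0.47) and Maf (0.09 to 0.55) keep their sign in every row, while Il4, Stat6, Il1rl1, Il24 and Il4ra change it in at least 1.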

How the data were processed

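RNA of 6 iTreg cultures, 3 cKO and 3 control, was labelled with Cy3 and hybridized by the authors to Agilent whole mouse genome arrays. The spot intensities deposited by the authors are processed signals on a linear scale, background-subtracted and detrended by Feature Extraction (version 9.1 in the submitters' processing notes, 10.7.3.1 in the file headers) and not normalized between arrays. The authors also deposited a table of log2 values with columns of equal median (6.15), whose normalization is not given in the sources used here. It correlates with the log2 scanner signal at 0.998 or higher and was used as an alternative. All 6 columns were assigned, leaving 0.

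Control spots and outliers (123 to 140 of 43379 other spots per array) were dropped, the log2 spots of a probe were averaged and each array's 75th percentile over its spots was subtracted. The 22281 probes that were well above background on 3 or more arrays were fitted in limma 3.58.1 (lmFit, eBayes; R 4.3.3) with Benjamini-Hochberg adjustment over all of them and a threshold of 0.05. For a single probe a two-sided exact permutation test of 3 arrays against 3 was used, whose smallest p is 0.10. The p-values measure the spread between arrays of mice cultured separately. In the control group this spread also holds any difference between slides and scans, which the main fit does not take out. Array replicate numbers did not pair the samples. Tables and plots were made with Python 3.11.15, pandas 2.3.3, numpy 2.4.6, scipy 1.17.1 and matplotlib 3.10.9; robust fits used statmod 1.5.0. The steps were tested on simulated data.

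All 9 members are named with every probe. From the wider lists (signalling, transcription factors, cytokines, surface receptors) up to 3 genes of smallest unadjusted p under 0.05 are named, and neighbours of the Il4, Il24 and Il1rl1 genes. Markers of T and Treg, TH1 and TH17, CD8 T and NK, mast cell, basophil and eosinophil, B and myeloid cells were checked; of the 6 B cell markers 1 was tested and of the 7 myeloid markers 2. The members and lists were chosen with earlier results of these data known. Gene symbols and mm9 positions are the array's; 15 of 17 accessions matched RefSeq entries of the member. Sequences of miR-31 and of promoters are RefSeq's (GRCm38.p6), which held no window for Maf and Il24. Alternatives changed 1 choice at a time, except normexp with quantile normalization, which changes both the background correction and the normalization: background correction (normexp, offset 50), normalization, scaling point, the table of log2 values, the filter, the test, array weights, replicate number or slide as a term, each array left out, and the mean over a gene's probes. Taking the percentile over probes was added after the data were seen.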

Additional observations from a re-analysis of the deposited data

How the results depend on the processing

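The array count, 3 a group, limits precision, and no member reached an adjusted p under 0.05 under any alternative, the lowest being 0.066 for Il1rl1 A_52_P19955. Gata3 (0.10 to 0.47) and the brightest Maf probe (0.09 to 0.55) kept their sign throughout. So did Stat6 A_51_P452382 (0.11 to 0.36) and A_52_P132761 (0.08 to 0.31), and Maf A_52_P1074873 (0.24 to 0.67). Il1rl1 A_52_P19955 (0.60 to 2.64), which passed the filter through its cKO arrays alone, kept it too. A gene named below without a probe is given at its brightest probe. Normexp with the 75th percentile, which moved the median of all probes from -0.04 to 0.11, turned Il4 to 0.37, Il4ra to -0.062 and Stat6 to -0.19. Slide as a term, which rests on the same arrays as the comparison within slide 1, gave -0.25 for Il1rl1, -0.035 for Stat6, and -0.25 and -0.12 (A_52_P87757) for Il24. Array weights gave -0.14 for Stat6 and -0.20 for Maf A_51_P379230. Leaving out each array gave -0.56 to 0.29 for Il4 (positive without control array 1), -0.027 to 0.19 for Stat6 (negative without cKO array 3 or control array 3), -0.00498 to 0.64 for Maf A_51_P405167 and -0.13 to 0.41 for Maf A_51_P379230, both negative without cKO array 1. The cause of these changes was not tested.

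Member probes with an unadjusted p under 0.05 numbered 1, Il1rl1 A_52_P19955. With slide as a term this probe (1.33) no longer had such a p, whereas Il4 (-1.30) had. That fit rests on control array 1 as the only control on slide 1. Member probes with such a p were 0 among probes well above background on all arrays, where the Il1rl1 probe does not enter. They were 1 to 3 with an array left out (3 without cKO array 2). With the replicate number as a block they were 5, where 16.3% of all tested probes had such a p, but same-numbered arrays did not deviate together (correlations -0.14, 0.01 and -0.19), so that the numbers do not pair the arrays. In the wider TH2 list 17 genes had such a p, 5 with normexp and the 75th percentile, 2 with slide as a term (7.39% of all tested probes) and 10 to 17 with an array left out (10 without control array 3).

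Over all tested probes 54 had an adjusted p under 0.05, of which 26 lay between 0.049 and 0.05, so that small shifts move the count. It was 29 with the 75th percentile taken over probes, an alternative chosen after seeing the data. The number was 115 with normexp and quantile normalization, 28 with quantile normalization and with the authors' table, 174 for probes above background on all arrays, 105 with trend and robust fitting, 2205 with array weights, and 0 in the methods' t-test, with the replicate block, with slide as a term, when dim probes were kept, and for normexp scaled by the 75th percentile. With an array left out it was 0 to 1. Il5 and Il13 have no value under any alternative that keeps the filter.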
